A study of Mus musculus with 39 samples.

Results

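The glutathione S-transferases described here are 10 genes, taken by symbol from the 55357 genes of each table: Gsta1, Gsta2, Gsta3 and Gsta4 of the alpha class, Gstm1, Gstm2 and Gstm3 of the mu class, Gstp1 of the pi class, Gsto1 of the omega class and Gstt1 of the theta class. They were measured by RNA sequencing of whole lung and colon from C57BL/6N mice, as FPKM, a fragment count per gene scaled to its length and to the library total. The study set Cd177 knockout (KO) against wild-type (WT) mice, each in an acute pancreatitis (AP) group and a sham group. Lung had 5 libraries in each of KO AP, KO sham, WT AP and WT sham. Colon had 4 libraries in KO AP and 5 in each of KO sham, WT AP and WT sham. The sources used here do not say how AP was brought about, how long after it the tissue was collected, or how the knockout was made. The labels give no sign that replicates are separate mice, so p-values measure the spread between these libraries, which may be technical.

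Glutathione transferases join the thiol of glutathione to reactive, electrophilic molecules, so that these can be exported and broken down as mercapturates. Cells rebuild the glutathione that is used from cystine, glutamate and glycine. Many genes of the family carry antioxidant response elements, at which the factor NRF2 (Nfe2l2) acts once its inhibitor KEAP1 lets it go, and some respond to the aryl hydrocarbon receptor through xenobiotic response elements. In lung these enzymes are known best from airway epithelium, and in the gut from the absorptive epithelium.

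Cd177, the neutrophil surface gene removed in KO mice, was listed at 0 FPKM in all KO libraries of both tissues. It averaged 3.19 ± 0.926 FPKM in WT AP lung, 2.01 ± 0.926 FPKM in WT sham lung, 60.7 ± 11.5 FPKM in WT AP colon and 43.2 ± 5.60 FPKM in WT sham colon (SD, n = 5 each). Summed neutrophil markers went the other way between tissues, with means of 246 FPKM in WT sham lung and 3.44 FPKM in WT sham colon. The cells that carry Cd177 in colon were not tested. Depth, recovered from the steps between low values, was 77.2 to 95.4 M reads for KO lungs, 57.9 to 71.2 M reads for WT lungs, 77.4 to 98.5 M reads for KO colons and 55.3 to 78.0 M reads for WT colons, so genotype and depth cannot be told apart. The mean correlation of a lung library with the others of its group ranged over 0.929 to 0.962 for KO libraries and 0.968 to 0.988 for WT libraries. Of the KO lung libraries, KO sham replicate 4 stood apart for the glutathione transferases: its summed level over the 10 genes was 959 FPKM, against 2317 to 4424 FPKM in the other KO sham libraries and 886 to 1064 FPKM in WT sham. Its Cd177 was 0 like that of the rest, and the values it moves most are given with and without it. By whole-library correlation KO AP replicate 3 (0.929) and KO sham replicate 5 (0.936) were less like their groups than this library (0.938). It was singled out by the level of these same genes, so leaving it out tends to widen their KO sham difference. Member values without it are therefore a description and no separate test. Alveolar markers were present in all lung libraries and goblet and absorptive markers in all colon libraries, none of them at 0 throughout.

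The promoters of 4 genes that the lung results turn on are shown first, to set the nearly matching starts of Gsta1 and Gsta2 beside those of Gstp1 and Gsto1. They come from RefSeq on build GRCm38.p6, 250 bases before to 50 bases after the start site, while the deposited values refer to mm39. Of the 10 genes, 9 had a window (Gstm1 had 2). Capitals mark the xenobiotic response element core GCGTG. The other motif searched was the antioxidant response element core TGACNNNGC, and both strands were read. The motifs can share the letters GC, but no matches overlapped.
Gsta1 (chr9:78230419-78230718, plus strand): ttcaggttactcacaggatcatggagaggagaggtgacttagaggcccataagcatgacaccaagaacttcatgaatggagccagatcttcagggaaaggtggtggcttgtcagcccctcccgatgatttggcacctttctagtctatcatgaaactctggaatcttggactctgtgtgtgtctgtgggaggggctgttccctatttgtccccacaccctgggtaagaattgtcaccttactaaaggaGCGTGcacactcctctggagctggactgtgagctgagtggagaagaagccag
Gsta2 (chr9:78347096-78347395, minus strand): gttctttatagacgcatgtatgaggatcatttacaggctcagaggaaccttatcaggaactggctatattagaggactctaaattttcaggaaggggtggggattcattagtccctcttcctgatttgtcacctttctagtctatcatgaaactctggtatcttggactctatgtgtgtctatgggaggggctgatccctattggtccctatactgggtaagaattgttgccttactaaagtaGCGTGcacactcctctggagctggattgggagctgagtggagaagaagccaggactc
Gstp1 (chr19:4037863-4038162, minus strand): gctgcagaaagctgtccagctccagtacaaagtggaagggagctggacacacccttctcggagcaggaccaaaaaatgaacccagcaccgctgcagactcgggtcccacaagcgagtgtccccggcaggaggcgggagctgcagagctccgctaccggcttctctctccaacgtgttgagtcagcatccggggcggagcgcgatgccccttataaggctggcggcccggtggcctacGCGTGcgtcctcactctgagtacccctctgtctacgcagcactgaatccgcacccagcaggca
Gsto1 (chr19:47854723-47855022, plus strand): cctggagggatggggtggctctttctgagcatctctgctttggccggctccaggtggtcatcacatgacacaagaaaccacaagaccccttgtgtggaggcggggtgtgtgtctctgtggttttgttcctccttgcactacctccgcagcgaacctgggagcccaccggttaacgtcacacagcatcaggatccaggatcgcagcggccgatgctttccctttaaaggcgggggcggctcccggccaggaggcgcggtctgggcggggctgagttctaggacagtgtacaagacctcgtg
Between the Gsta1 and Gsta2 windows 232 of 289 aligned bases were identical (80.3%), and GCGTG lay at or just before the start in each. GCGTG also stood just before the start of Gstp1 and further upstream in Gstm1, which makes 4 of the 9 genes, against 32.4% of all 32851 windows. TGACNNNGC was found in 1 of the 9, Gsta3, against 12.4% of all windows. No match was found in the windows of Gsto1, Gstm2, Gstm3 or Gstt1, which says only that these letters are not in these 300 bases.

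Likeness between genes also limits what an FPKM can tell apart. Of the 826 stretches of 50 bases in the longest coding Gsta1 transcript (GENCODE M21), 89.7% also occur in transcripts of other genes, 82.9% in the predicted gene Gm3776 and 44.6% in Gsta2. For Gsta2 the share was 64.2%, for Gstm3 28.8%, for Gstm1 23.1% and for Gstm2 9.36%. For Gstp1 it was 62.3%, all of it found in Gstp2, and 45.6% of its stretches were found in Gstp-ps. Gsta3, Gsta4, Gsto1 and Gstt1 shared none, so their values do not hang on how the authors' counting split reads between copies. In lung, Gm3776 followed Gsta1: it lay at 18.9 to 297 FPKM in KO AP against 0.145 to 0.371 FPKM in WT AP, and at 0.207 to 516 FPKM in KO sham against 0.161 to 0.289 FPKM in WT sham. The separate levels of Gsta1, Gsta2 and Gm3776, and those of Gstp1, Gstp2 and Gstp-ps, are therefore uncertain.

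In lung, the alpha-class genes Gsta1, Gsta2 and Gsta4, Gstp1 and Gsto1 were the members that stood highest in KO relative to WT, with or without pancreatitis. The genes were taken to be chosen by the difference between KO and WT in AP lungs, known from earlier results. That difference is therefore given as a description without a test. The same difference in sham libraries was tested with limma on log2(FPKM + 1), where the change of a low gene comes out too small, with p-values adjusted over all 15978 lung genes that reached 1 FPKM in at least 4 libraries. All 10 members passed that filter in both tissues. Whether the sham difference was also in view when the members were chosen is not known, so its test may not be independent of that choice.

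Gsta1, an alpha-class transferase with activity toward lipid peroxides, had 317, 25.3, 129, 100.1 and 104 FPKM in KO AP lungs, against 0.199, 0.406, 0.494, 0.734 and 0.385 FPKM in WT AP lungs. Every KO AP library was above every WT AP library, and the log2 difference was 6.17 ± 1.06 (SE). In sham, Gsta1 had 554, 351, 163, 0.684 and 377 FPKM in KO lungs, against 0.370, 0.553, 0.359, 0.624 and 0.409 FPKM in WT lungs. All KO sham libraries but replicate 4 were high, and that library lay just above the highest WT sham library. The log2 difference was 6.30 ± 1.06 (adjusted p = 5.69e-05), and 7.83 ± 0.45 without KO sham replicate 4.

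Gsta2, the member that shares most sequence with Gsta1, had 147, 34.6, 64.7, 58.3 and 58.2 FPKM in KO AP lungs, against 3.58, 3.74, 5.43, 6.42 and 3.83 FPKM in WT AP lungs, a log2 difference of 3.58 ± 0.59. In sham it had 223, 155, 85.3, 7.42 and 129 FPKM in KO lungs, against 3.13, 5.44, 5.43, 4.60 and 4.28 FPKM in WT lungs. The groups did not overlap, although KO sham replicate 4 was again close to WT. The sham log2 difference was 3.86 ± 0.59 (adjusted p = 2.25e-05), and 4.68 ± 0.31 without that library.

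Gsta4, which conjugates the lipid peroxidation product 4-hydroxynonenal, shares no 50-base stretch with another gene. It had 457, 194, 307, 251 and 271 FPKM in KO AP lungs, against 62.7, 52.3, 72.4, 84.7 and 59.7 FPKM in WT AP lungs, a log2 difference of 2.10 ± 0.39. In sham, its level was 684, 429, 280.0, 77.7 and 570 FPKM in KO lungs, against 55.6, 63.9, 54.2, 50.6 and 67.4 FPKM in WT lungs. All KO libraries were above all WT libraries of the same treatment, KO sham replicate 4 by the least. The sham log2 difference was 2.47 ± 0.39 (adjusted p = 3.47e-05). Gsta3, the alpha-class member most expressed in WT lung, averaged 249 ± 93.9 FPKM in KO sham and 194 ± 33.1 FPKM in WT sham (SD, 5 libraries each). Its groups overlapped and its sham difference, 0.29 ± 0.21, missed the threshold (adjusted p = 0.249). Without KO sham replicate 4 that difference was 0.50 ± 0.17. In AP Gsta3 averaged 229.8 ± 38.3 FPKM in KO and 152 ± 15.7 FPKM in WT, overlapping in 1 KO library of 165 FPKM.

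Gstp1, the pi-class enzyme, had 646, 370, 486, 454 and 362 FPKM in KO AP lungs, against 113, 108, 112, 145 and 104 FPKM in WT AP lungs, a log2 difference of 1.96 ± 0.26. In sham, KO lungs had 946, 665, 420, 253 and 814 FPKM and WT lungs 116, 127, 103, 120.0 and 132 FPKM. No KO library fell into the WT range, KO sham replicate 4 included. The sham log2 difference was 2.22 ± 0.26 (adjusted p = 1.52e-06). Its near copy Gstp2 averaged 77.2 ± 38.7 FPKM in KO sham and 15.2 ± 1.53 FPKM in WT sham, a log2 difference of 2.10 ± 0.29 (adjusted p = 8.68e-06). Gstp-ps, the other near copy, averaged 203 ± 94.4 FPKM in KO sham and 43.5 ± 7.97 FPKM in WT sham (2.08 ± 0.29, adjusted p = 8.55e-06).

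Gsto1, an omega-class enzyme that works more as a thiol reductase than as a conjugating enzyme, also has no shared stretch. It had 824, 457, 670, 526 and 598 FPKM in KO AP lungs, against 104, 97.9, 103, 123 and 108 FPKM in WT AP lungs, a log2 difference of 2.49 ± 0.40. In sham, KO lungs had 1055, 794, 512, 106 and 398 FPKM, against 138, 92.8, 81.3, 73.4 and 80.5 FPKM in WT lungs. KO sham replicate 4 lay within the WT range, and the others lay above it. The sham log2 difference was 2.29 ± 0.40 (adjusted p = 8.17e-05), and 2.81 ± 0.24 without that library.

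**Figure D1:**
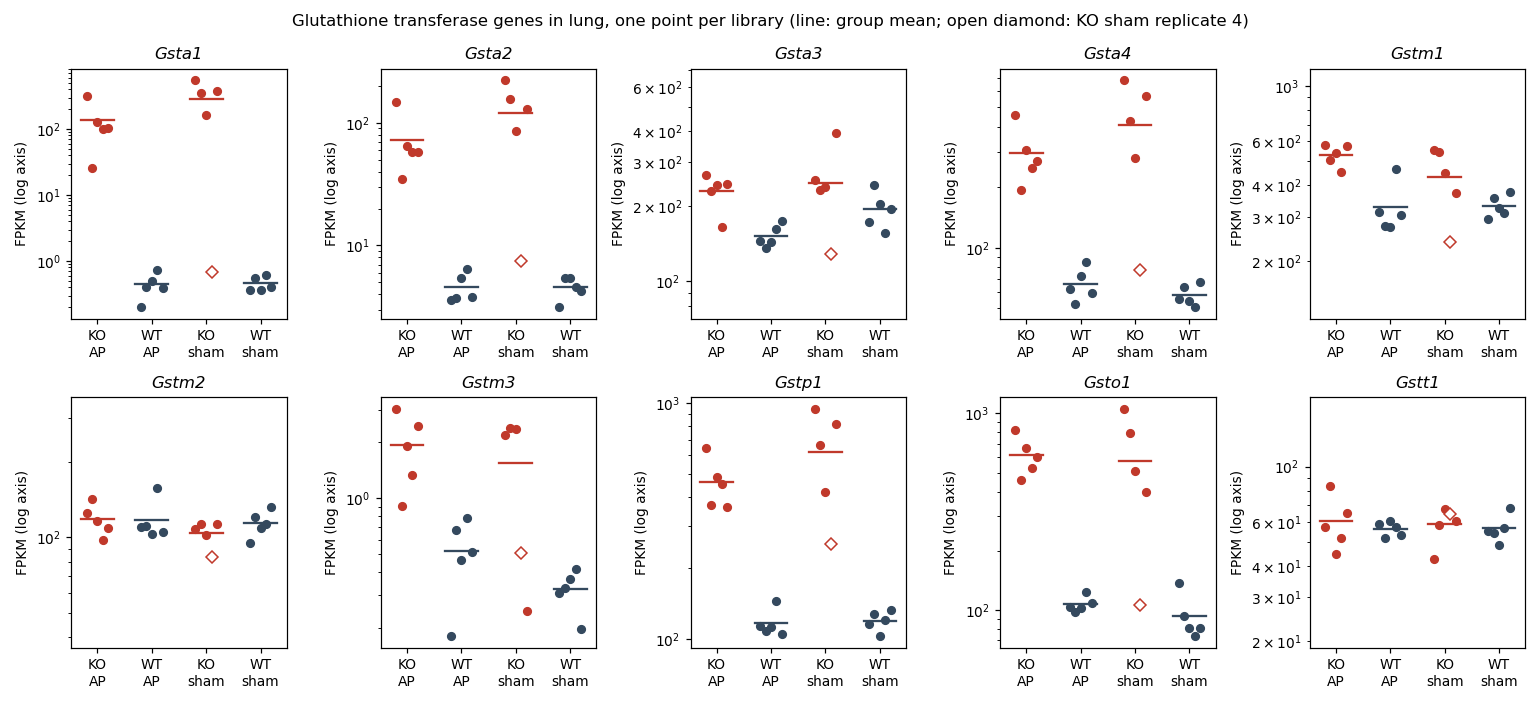
FPKM of each glutathione transferase gene in every lung library on a log axis, KO in red and WT in dark blue; lines are group means and the open diamond is KO sham replicate 4. Gsta1 spans 25.3 to 317 FPKM in KO AP against 0.199 to 0.734 FPKM in WT AP, while Gstm2 and Gstt1 overlap between genotypes.

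On the log2(FPKM + 1) scale the mu- and theta-class genes differed less than Gsta1, Gsta2, Gsta4, Gstp1 and Gsto1. For Gstm3, a low gene in lung, the ratio of the KO mean to the WT mean was 3.69 in AP and 4.75 in sham. Gstm1, a mu-class enzyme and the most abundant member in WT lung, averaged 531 ± 53.3 FPKM in KO AP and 327 ± 79.2 FPKM in WT AP, with 1 WT library of 465 FPKM inside the KO range. In sham it averaged 432 ± 132 FPKM in KO and 333 ± 33.0 FPKM in WT, a log2 difference of 0.32 ± 0.20 that missed the threshold (adjusted p = 0.174). Without KO sham replicate 4 that difference was 0.52 ± 0.16. Gstm3, a mu-class gene hardly expressed in lung, had 0.905 to 3.03 FPKM in KO AP against 0.181 to 0.787 FPKM in WT AP. In sham it ranged over 0.248 to 2.38 FPKM in KO and 0.199 to 0.416 FPKM in WT, a log2 difference of 0.82 ± 0.26 (adjusted p = 0.0104) in overlapping groups.

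Gstm2 and Gstt1 showed no call on the FPKM scale. Gstm2, also of the mu class, averaged 118 ± 16.9 FPKM in KO AP and 117 ± 22.9 FPKM in WT AP, and 104 ± 12.4 FPKM in KO sham and 114 ± 13.7 FPKM in WT sham (log2 difference -0.13 ± 0.14, adjusted p = 0.410). After rescaling every library to the same total it passed as lower in KO sham, at -0.41 ± 0.12 (adjusted p = 0.00863). Gstt1, which acts on small halogenated molecules, averaged 60.6 ± 15.1 FPKM in KO AP and 56.5 ± 3.78 FPKM in WT AP. Its sham means were 58.8 ± 9.73 FPKM in KO and 56.8 ± 7.35 FPKM in WT (log2 difference 0.04 ± 0.15, adjusted p = 0.824).

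Counted over the 10 genes, 6 lay wholly above WT in KO AP lungs (Gsta1, Gsta2, Gsta4, Gstm3, Gstp1 and Gsto1), where 19.3% of all lung genes tested did so. In sham lungs 6 passed the test as higher (Gsta1, Gsta2, Gsta4, Gstm3, Gstp1 and Gsto1), where 28.8% of all genes passed as higher, and 0 passed as lower, where 30% of all genes did. The 4 that lay wholly above WT in sham were Gsta1, Gsta2, Gsta4 and Gstp1, where again 19.3% of all genes did so. The median log2 difference in sham was 1.52 over the 10 genes and -0.01 over all genes. KO and WT lung differed in much of the transcriptome, with 9393 of 15978 genes past the threshold in sham (58.8%) and 8908 in AP (55.8%). Rescaling all libraries to the same total moved the median of all genes to -0.25 in sham and -0.18 in AP, and the share of called genes that were higher in KO to 30.5% in sham, against 49.0% as deposited, and to 33.9% in AP, against 49.5% as deposited. The 6 sham calls held after that rescaling.

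**Figure D2:**
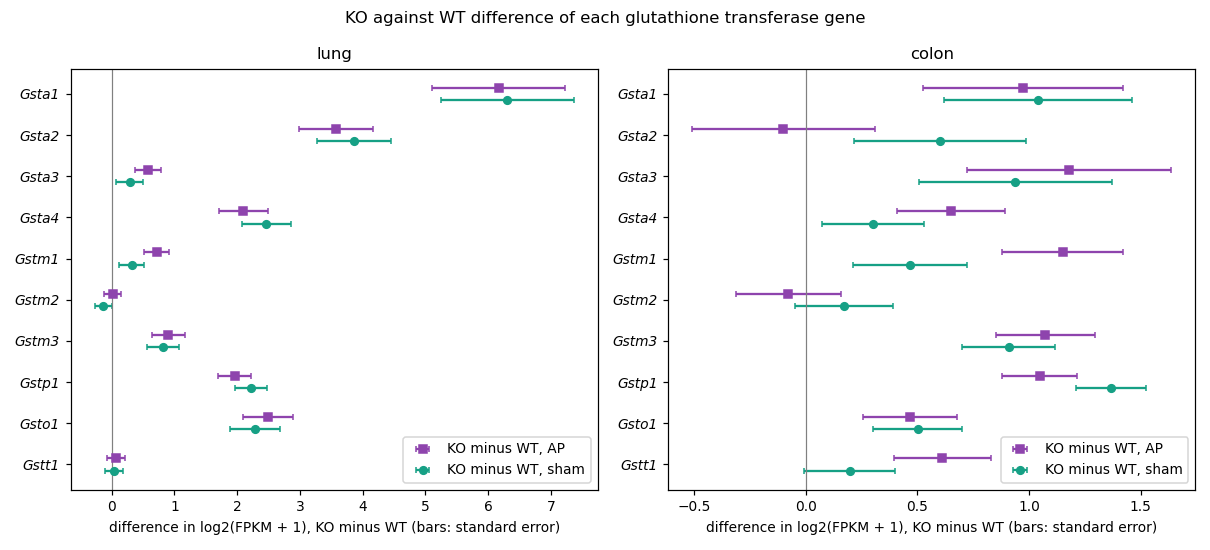
Difference between KO and WT in log2(FPKM + 1) for each gene, with standard errors, in lung and colon; squares are AP and circles sham, and the axes of the tissues differ in scale. Lung values reach 6.17 in AP and 6.30 in sham for Gsta1, and no colon value is above 1.37.

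The make-up of the family differed with these changes. The 10 genes summed to 2524 ± 547 FPKM in KO AP lungs and 948 ± 146 FPKM in WT AP lungs, and to 2854 ± 1297 FPKM in KO sham lungs and 974 ± 80.9 FPKM in WT sham lungs (SD, n = 5 each). The mu class made up 26.4% of that sum in KO AP and 46.5% in WT AP, and 21.4% in KO sham and 45.9% in WT sham. The omega gene held 24.3% in KO AP and 11.4% in WT AP, and 18.6% in KO sham and 9.63% in WT sham. Gsta1 alone made up 4.89% of the sum in KO AP and 0.0460% in WT AP. In WT sham lung the order of levels, per length, was Gstm1, Gsta3, Gstp1, Gstm2, Gsto1, Gsta4, Gstt1, Gsta2, Gsta1 and Gstm3. Neighbours whose ranges overlapped in that order were Gstp1 and Gstm2, Gstm2 and Gsto1, Gsta4 and Gstt1, and Gsta1 and Gstm3. In KO sham lung Gstp1 and Gsto1 had the highest means, Gsta1 came after Gstm1 and Gsta4 at 289 ± 213 FPKM, and neighbours overlapped from Gstp1 down to Gstm2.

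**Figure D3:**
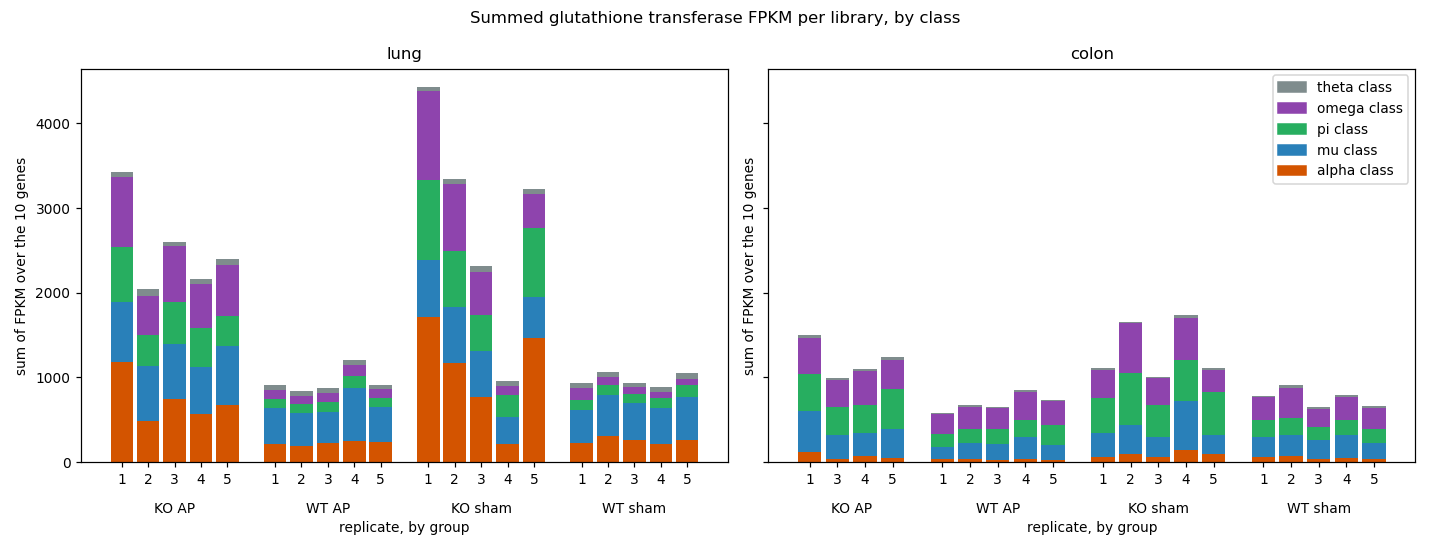
Sum of FPKM over the 10 genes in each library, stacked by class, lung on the left and colon on the right, with KO left of WT within each treatment. KO lungs reach 4424 FPKM, KO sham replicate 4 stands at 959 FPKM, and WT lungs stay at or below 1203 FPKM.

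Pancreatitis itself was accompanied by no member call in lung. Between AP and sham, 2 of 15978 genes passed in KO (0.0125%) and 13 in WT (0.0814%), with 2234 and 1066 genes at an unadjusted p under 0.05, so this design called few genes of any kind. In KO lungs Gsta1 averaged 135 ± 109 FPKM in AP and 289 ± 213 FPKM in sham, a log2 difference of -0.17 ± 1.06 (adjusted p = 0.960). Without KO sham replicate 4 that difference was -1.69 ± 0.45, and those of Gsta2 and Gsta4 were -1.10 ± 0.31 and -0.71 ± 0.24. These values are a description only, as that library was singled out by its low level of these same genes. With all libraries, the lowest unadjusted p among members was that of Gstm1 in KO, with a log2 difference of 0.36 ± 0.20 (adjusted p = 0.420). In WT lungs Gsta3 averaged 152 ± 15.7 FPKM in AP and 194 ± 33.1 FPKM in sham, -0.34 ± 0.21 on the log2 scale (adjusted p = 0.860). The difference between the AP responses of KO and WT lungs ranged over the members from -0.37 ± 0.56 for Gsta4 to 0.40 ± 0.28 for Gstm1. Without KO sham replicate 4 it ranged from -1.66 ± 0.62 for Gsta1 to 0.20 ± 0.23 for Gstm1, with 0 of 15978 genes called in either case. These comparisons share libraries with those of KO against WT.

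Among the 10 KO lung libraries, Gsta1, Gsta2 and Gsta4 were high or low in the same libraries. Gsta1 and Gsta2 had Pearson's r = 0.986 and Spearman's rho = 0.952 (permutation test, two-sided, p = 2e-05 and 0.00013, and 0.00036 and 0.00292 adjusted over 45 pairs), and r stayed at 0.986 without the 2 libraries farthest from the median. These genes share sequence, but Gsta1 and Gsta4, which share none, had r = 0.970 and rho = 0.976 (adjusted p = 0.00036 and 0.0009 by permutation), and 0.964 without the 2 farthest. Gsta4 and Gstp1 had r = 0.952, and 0.947 without the 2 farthest. These pairs, and the next, were named after their values were seen. Permutations, here and in colon, moved libraries freely between AP and sham. Their p-values therefore do not separate a treatment difference from spread within a group. Gsta1 and Gsto1 had r = 0.890, which was 0.449 without the 2 farthest, so that relation rests on those libraries. The lowest value was between Gstp1 and Gstt1, at r = -0.555 and rho = -0.661 (permutation p = 0.0951 and 0.0436, adjusted 0.186 and 0.140), with r = -0.358 without the 2 farthest. Among the 10 WT lung libraries, r was 0.702 for Gsta1 and Gsta2 (adjusted permutation p = 0.251). For Gsta1 and Gsta4 it was 0.378 there (adjusted permutation p = 0.605), and for Gsta4 and Gstp1 0.661 (adjusted 0.259).

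The genes most like Gsta1 over the 20 lung libraries, left without a p because the genotypes form separate clusters, were Uchl1, Fbxo2, Pgd, Blvrb and Cbr3. Their r with Gsta1 was 0.977 to 0.994 over all libraries and 0.938 to 0.985 within the 10 KO libraries, but -0.40 to 0.58 within the 10 WT libraries. Uchl1, a ubiquitin hydrolase gene known from neurons and neuroendocrine cells, averaged 155 FPKM in KO sham and 4.95 FPKM in WT sham. Pgd, of the pentose phosphate pathway, averaged 245 FPKM in KO sham and 56.8 FPKM in WT sham. In KO sham replicate 4 these genes were at 7.32 FPKM (Uchl1), 5.91 FPKM (Fbxo2), 60.4 FPKM (Pgd), 21.3 FPKM (Blvrb) and 15.8 FPKM (Cbr3), near the WT means. As that library was among those over which likeness to Gsta1 was measured, this follows in part from how the genes were chosen.

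Many genes of a list for glutathione synthesis, recycling and cystine import were higher in KO sham lung as well, and those of the NRF2 list were mixed. The glutathione list also holds genes that use glutathione or break it down, such as Gpx1, Chac2 and Ggt6. Of 22 genes for synthesis, recycling and cystine import, 18 passed as higher in KO sham and 0 as lower (median log2 difference 0.94, against -0.01 for all genes), and in KO AP 15 and 0 did so. Over all genes, 28.8% passed as higher and 30% as lower in sham, and 27.6% and 28.1% in AP. Slc7a11, which imports cystine, averaged 18.4 ± 17.4 FPKM in KO sham and 0.137 ± 0.0465 FPKM in WT sham, a log2 difference of 3.37 ± 0.69 (adjusted p = 0.000369). Gclm, the modifier subunit of the rate-limiting ligase, averaged 45.2 ± 33.2 FPKM in KO sham and 9.27 ± 0.432 FPKM in WT sham (1.85 ± 0.37, adjusted p = 0.000304). Its catalytic partner Gclc rose by 1.30 ± 0.40 (adjusted p = 0.00845), the peroxidases Gpx1 and Gpx4 by 1.44 ± 0.16 and 1.55 ± 0.24, and glutathione reductase, Gsr, by 1.39 ± 0.20. Chac2 and Ggt6, genes of glutathione breakdown, were higher too, at 0.85 ± 0.17 and 1.64 ± 0.24 without KO sham replicate 4.

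Of 28 genes of the NRF2 pathway and its targets outside glutathione, 17 passed as higher in KO sham lung and 4 as lower (median 0.64), with 17 and 3 in KO AP. Nqo1, a quinone reductase, averaged 24.0 ± 15.6 FPKM in KO sham and 3.90 ± 0.719 FPKM in WT sham, a log2 difference of 2.04 ± 0.40 (adjusted p = 0.000273). Taldo1, of the pentose phosphate pathway, and Ptgr1, which reduces reactive aldehydes and ketones, rose by 2.53 ± 0.29 and 2.27 ± 0.29. Bach1, a repressor at NRF2 sites, fell by 1.13 ± 0.12 on the log2 scale (adjusted p = 4.23e-07), and Mafk, a small partner of NRF2 and BACH1, fell by 0.81 ± 0.11. Nfe2l2 itself averaged 73.3 ± 8.81 FPKM in KO sham and 66.3 ± 3.77 FPKM in WT sham (0.14 ± 0.09, adjusted p = 0.213), and Keap1 averaged 23.5 ± 2.92 FPKM in KO sham and 24.4 ± 0.572 FPKM in WT sham (-0.06 ± 0.12, adjusted p = 0.664). In AP, Nfe2l2 averaged 77.9 ± 4.47 FPKM in KO and 54.6 ± 4.69 FPKM in WT (0.51, adjusted p = 0.000153).

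**Figure D4:**
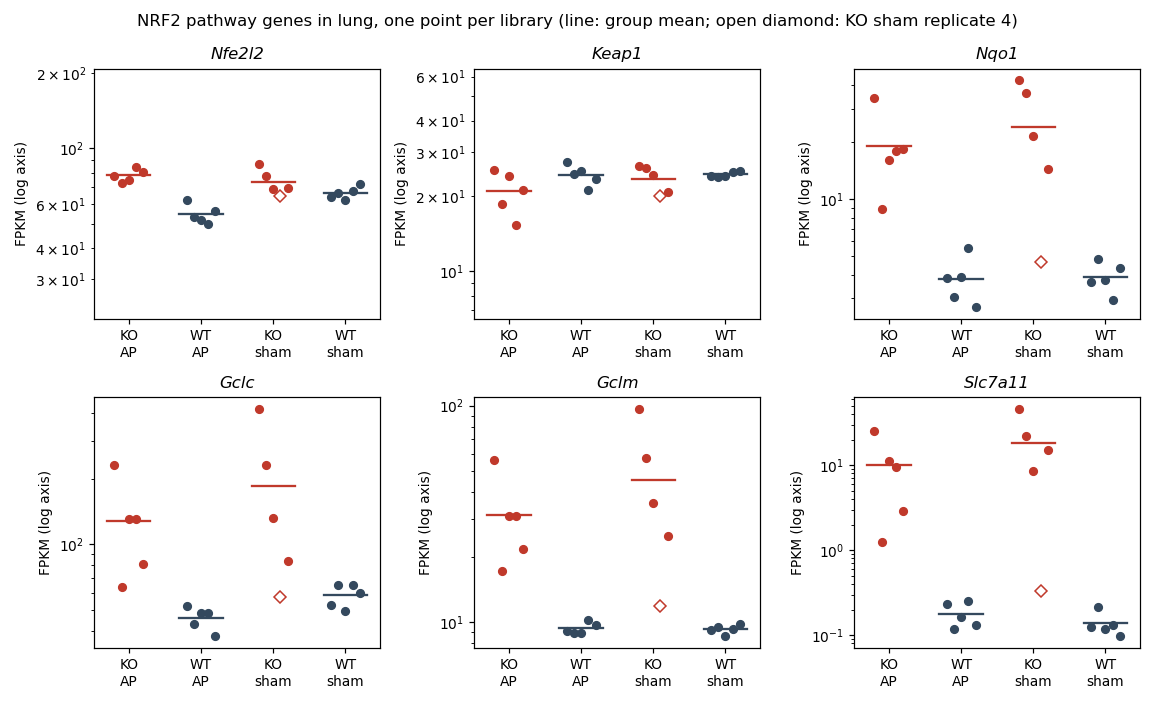
FPKM of Nfe2l2, Keap1, Nqo1, Gclc, Gclm and Slc7a11 in every lung library on a log axis, drawn as in the plot of the transferases. Nqo1, Gclm and Slc7a11 are higher in KO than in WT in nearly all libraries, with KO sham replicate 4 (open diamond) among the lowest KO libraries, while Keap1 overlaps between genotypes.

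Other members of the wider family followed in part. Of 23 further family genes tested in lung, 14 were higher and 2 lower in KO sham (median 0.66), and the same numbers in KO AP. The microsomal transferase Mgst3 averaged 54.9 ± 17.1 FPKM in KO sham and 24.7 ± 3.52 FPKM in WT sham (1.08 ± 0.19, adjusted p = 7.67e-05), and Eef1g, a translation factor subunit with a transferase fold, rose by 1.37 ± 0.17. The 2 that fell were Clic5, by 1.74 ± 0.22 on the log2 scale, and Clic4, by 1.26 ± 0.20, chloride channel proteins with the same fold. Of 11 genes for export and mercapturate steps, 5 were higher and 4 lower in sham (4 and 3 in AP), among them Acy1 at 0.79 ± 0.14 and the dipeptidase gene Dpep1 at -1.72 ± 0.32. Of 7 genes of the xenobiotic receptor pathway, 1 was higher (Cyp1a1, 0.73 ± 0.31, adjusted p = 0.0477, or 0.0669 without KO sham replicate 4) and 4 lower in sham (1 and 3 in AP). The aryl hydrocarbon receptor gene, Ahr, fell by 1.02 ± 0.14 on the log2 scale (adjusted p = 8.84e-06).

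Markers of cell types moved with the same comparison, and their counts stand against the same shares over all genes. Of 7 general epithelial markers, 6 were tested and all 6 rose in KO sham lung (median 1.72), among them Krt19 (2.48 ± 0.34) and Krt8 (1.87 ± 0.30). Their summed level was 856 to 1702 FPKM in KO AP against 363 to 426 FPKM in WT AP, and 610 to 2521 FPKM in KO sham against 355 to 454 FPKM in WT sham, with KO sham replicate 4 the lowest KO library at 610 FPKM. Of 12 club and ciliated airway markers, 3 rose and 4 fell in KO sham (median -0.05), with a summed level of 28695 to 78496 FPKM in KO sham against 46159 to 70825 FPKM in WT sham. Without KO sham replicate 4, 5 rose and 4 fell. In AP 6 of the 12 rose and 1 fell (median 0.59), and they summed to 27028 to 140358 FPKM in KO AP against 49303 to 89748 FPKM in WT AP. Of 12 alveolar markers 1 rose and 6 fell in sham (1 and 7 in AP), of 7 endothelial markers 4 fell in each treatment, and of 8 T and NK cell markers 5 fell in sham and 8 in AP. The endothelial sum was 278 to 1252 FPKM in KO sham against 1170 to 1294 FPKM in WT sham. Smooth muscle markers summed to 305 to 610 FPKM in KO sham against 189 to 227 FPKM in WT sham, with 4 of 7 higher and 2 lower in sham, and 5 and 2 in AP. Without KO sham replicate 4, Acta2 (1.40 ± 0.18), Tagln, Actg2 and Cnn1 of that list were higher in KO sham, and Myh11 (-0.80 ± 0.12) and Synm (-1.45 ± 0.13) lower. Of 8 fibroblast markers 3 fell in sham and 6 in AP. Of 8 macrophage markers 2 rose and 3 fell in sham, and 0 rose and 6 fell in AP. Of 8 neutrophil markers 0 passed in sham and 4 fell in AP, with a sum of 190 to 644 FPKM in KO AP against 594 to 871 FPKM in WT AP, and 62.7 to 2908 FPKM in KO sham against 122 to 343 FPKM in WT sham. None of these markers was at 0 in all lung libraries. Their part in the results was not tested, nor was that of transcript length or RNA quality. In bulk tissue fewer cells of a type and less RNA per cell cannot be told apart.

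In colon Gstp1 and Gstm3 passed as higher in KO in both treatments and Gstm1 in AP. Gsta1, Gsta2, Gsta4 and Gsto1, called in sham lung, did not pass in the main fit. Gsta1, Gsta4 and Gsto1 passed in colon under some other settings. All 10 genes were tested in colon, among 15001, in both treatments. In AP 3 passed as higher in KO, where 7.37% of all genes did so, and the same 3 lay wholly above WT, as 6.76% of all genes did, while 0 passed as lower, where 10.9% did so. In sham 2 passed as higher, where 16% of all genes did so, and 0 as lower, where 15.4% did so. Both lay wholly above WT, as 9.13% of all genes did. The median log2 difference was 0.81 in AP and 0.55 in sham, against -0.01 and 0.01 over all genes. After rescaling to the same total, the share of called genes higher in KO was 23.5% in AP, against 40.3% as deposited, and 30.0% in sham, against 51.0% as deposited. That moved the median of all genes to -0.12 in AP and -0.16 in sham, and the calls of these 3 genes held.

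Gstp1 had 435, 329, 334 and 472 FPKM in KO AP colons, against 159, 171, 177, 206 and 231 FPKM in WT AP colons. In sham it had 404, 607, 369, 486 and 508 FPKM in KO, against 195, 206, 154, 188 and 165 FPKM in WT. The genotypes did not overlap in either treatment. The log2 difference was 1.05 ± 0.17 in AP (adjusted p = 0.000929) and 1.37 ± 0.16 in sham (adjusted p = 4.32e-05). Gstp2 averaged 94.1 ± 23.7 FPKM in KO sham and 53.8 ± 7.43 FPKM in WT sham (0.76 ± 0.23, adjusted p = 0.0190). Gstp-ps averaged 198 ± 30.2 FPKM in KO sham and 98.8 ± 25.6 FPKM in WT sham (1.02 ± 0.21, adjusted p = 0.00176).

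Gstm3 had 50.1, 21.0, 30.6 and 33.1 FPKM in KO AP colons, against 10.4, 14.4, 17.9, 15.2 and 17.2 FPKM in WT AP colons. In sham it had 39.6, 37.5, 29.1, 54.4 and 27.04 FPKM in KO, against 21.3, 20.3, 16.8, 20.7 and 16.1 FPKM in WT. Again no library crossed into the other genotype's range. The log2 difference was 1.07 ± 0.22 in AP (adjusted p = 0.00412) and 0.91 ± 0.21 in sham (adjusted p = 0.00402).

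Gstm1 had 329, 217, 183 and 248 FPKM in KO AP colons, against 82.6, 112, 109, 163 and 85.2 FPKM in WT AP colons, a log2 difference of 1.15 ± 0.27 (adjusted p = 0.00820). All KO AP libraries lay above all WT AP libraries. In sham the groups overlapped, at 128 to 410 FPKM in KO and 117 to 172 FPKM in WT (0.47 ± 0.25, adjusted p = 0.170). Of the 50-base stretches of Gstm3, 9.83% also occur in Gstm1.

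Gsta1, the gene with the widest lung difference, overlapped between genotypes in colon. It had 46.0, 7.09, 33.0 and 11.7 FPKM in KO AP colons, against 9.67, 10.2, 7.35, 12.98 and 7.14 FPKM in WT AP colons (0.97 ± 0.45, adjusted p = 0.136). In sham it had 21.0, 41.4, 14.2, 55.2 and 28.0 FPKM in KO, against 15.3, 23.7, 9.43, 12.1 and 10.4 FPKM in WT (1.04 ± 0.42, adjusted p = 0.0672). The spread lay in the KO libraries. Gsta2 was low, at 0.224 to 3.45 FPKM in KO AP against 0.881 to 2.01 FPKM in WT AP, a log2 difference of -0.10 ± 0.41 (adjusted p = 0.895). In sham Gsta2 averaged 4.20 ± 2.76 FPKM in KO and 2.02 ± 0.680 FPKM in WT (0.60 ± 0.38, adjusted p = 0.245).

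The other alpha-class genes, Gsto1, Gstm2 and Gstt1 overlapped as well. Gsta3 averaged 23.6 ± 19.4 FPKM in KO AP (n = 4) and 8.24 ± 2.80 FPKM in WT AP (n = 5), a log2 difference of 1.18 ± 0.46 (adjusted p = 0.0804). Gsta4 averaged 22.2 ± 7.85 FPKM in KO AP and 13.3 ± 2.62 FPKM in WT AP (0.65 ± 0.24, adjusted p = 0.0675). Gsto1, the most abundant member in WT colon, averaged 372 ± 51.6 FPKM in KO AP and 269 ± 38.99 FPKM in WT AP (0.47 ± 0.21, adjusted p = 0.130), and 401 ± 138 FPKM in KO sham and 274 ± 50.7 FPKM in WT sham (0.50 ± 0.20, adjusted p = 0.0620). Gstt1 differed by 0.61 ± 0.22 in AP (adjusted p = 0.0565) and by 0.20 ± 0.20 in sham. Gstm2 differed by -0.08 ± 0.23 in AP and 0.17 ± 0.22 in sham.

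**Figure D5:**
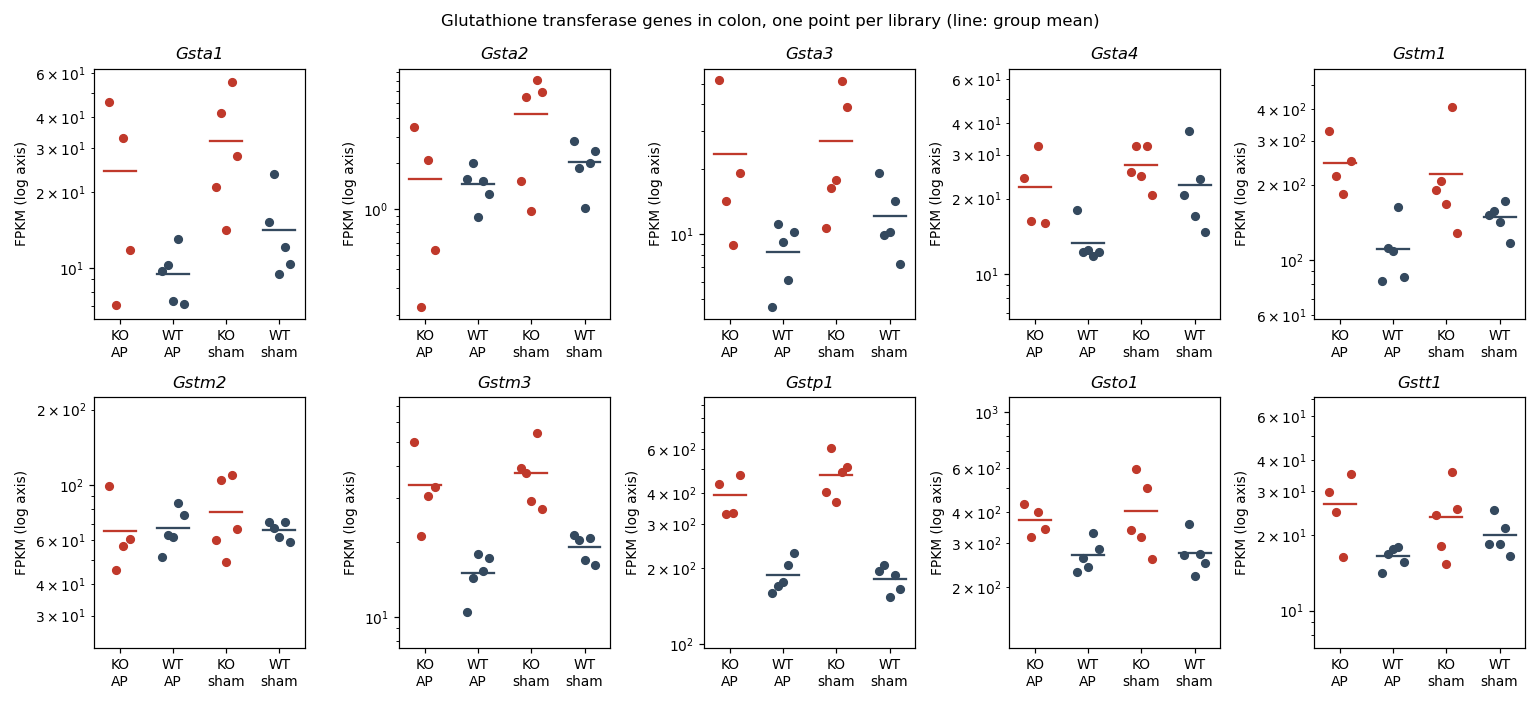
FPKM of each glutathione transferase gene in every colon library on a log axis, KO in red and WT in dark blue, with lines for group means. KO and WT do not overlap for Gstp1 and Gstm3 in either treatment or for Gstm1 in AP, and Gsta1 overlaps in both treatments.

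Between AP and sham, no member passed in colon. In KO colon 6 of 15001 genes passed (0.04%), with 2798 at an unadjusted p under 0.05, and in WT colon 0 passed in the limma fit, with 938 at an unadjusted p under 0.05. In KO, Gsta2 averaged 1.58 ± 1.49 FPKM in AP (n = 4) and 4.20 ± 2.76 FPKM in sham (n = 5), a log2 difference of -0.99 ± 0.41 (adjusted p = 0.208). In WT, Gsta4 averaged 13.3 ± 2.62 FPKM in AP and 22.7 ± 8.83 FPKM in sham (n = 5 each), which differed by -0.67 ± 0.23 on the log2 scale (adjusted p = 0.791). The difference between the AP responses of KO and WT was 0 genes called, with 2821 at an unadjusted p under 0.05, and was widest among members for Gsta2 (-0.70 ± 0.56) and Gstm1 (0.68 ± 0.37, adjusted p = 0.327).

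Partner genes in colon are counted against 7.37% of all genes higher and 10.9% lower in AP, and 16% higher and 15.4% lower in sham. Of 21 genes tested from the list for glutathione synthesis, recycling and cystine import, 4 rose and 2 fell in KO AP, and 8 rose and 0 fell in KO sham (median 0.31). Gclm averaged 19.3 ± 4.93 FPKM in KO AP and 10.1 ± 0.832 FPKM in WT AP (0.84, adjusted p = 0.00543), and 19.5 ± 4.48 FPKM in KO sham and 12.3 ± 2.98 FPKM in WT sham (0.63 ± 0.17, adjusted p = 0.0112). Of 27 genes of the NRF2 list, 6 rose and 2 fell in KO AP, and 8 rose and 1 fell in KO sham. Cbr3, a carbonyl reductase, rose by 1.69 ± 0.33 in sham (adjusted p = 0.00136). Keap1 averaged 18.2 ± 4.89 FPKM in KO AP and 31.4 ± 5.65 FPKM in WT AP, a log2 difference of -0.77 (adjusted p = 0.00707), and -0.12 ± 0.17 in sham (adjusted p = 0.598). Nqo1 missed the threshold in both treatments (0.25, adjusted p = 0.554 in AP; 0.56 ± 0.26, adjusted p = 0.110 in sham). Of 23 further family genes, 6 rose and 2 fell in KO AP, and 6 rose and 3 fell in KO sham, with Gstm4 (0.62 ± 0.14), Gstm5 (0.68 ± 0.15) and Gstm6 (0.73 ± 0.21) of the mu cluster among those that rose in sham.

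Markers of some cell types moved in colon too. Their counts stand against 7.37% of all genes higher and 10.9% lower in AP, and 16% higher and 15.4% lower in sham. In sham, the general epithelial counts and that of the absorptive markers that fell were near those shares. All 7 T and NK cell markers tested fell in KO in both treatments (median -2.68 in AP and -2.01 in sham), with a summed level of 1.34 to 5.76 FPKM in KO AP against 28.1 to 305 FPKM in WT AP, and 1.94 to 236 FPKM in KO sham against 111 to 156 FPKM in WT sham. Smooth muscle markers summed to 1770 to 3298 FPKM in KO AP against 306 to 1922 FPKM in WT AP, and to 2066 to 5738 FPKM in KO sham against 878 to 1318 FPKM in WT sham. General epithelial markers summed to 4071 to 8408 FPKM in KO AP against 6282 to 7202 FPKM in WT AP, and to 5339 to 12553 FPKM in KO sham against 5955 to 8161 FPKM in WT sham, with 1 of the 7 higher and 1 lower by the sham test. Goblet markers summed to 3023 to 5457 FPKM in KO AP against 8103 to 17112 FPKM in WT AP (5 of 7 fell), and to 4675 to 8490 FPKM in KO sham against 8205 to 15943 FPKM in WT sham (2 of 7 fell). Absorptive markers summed to 5271 to 10108 FPKM in KO AP against 2407 to 5171 FPKM in WT AP (3 of 8 rose), and to 3572 to 9768 FPKM in KO sham against 3043 to 13645 FPKM in WT sham, overlapping widely (1 of 8 fell). None of these epithelial and muscle markers was at 0 in all colon libraries, and Cd3d, Nkg7 and Ncr1 were at 0 in some. Endothelial markers fell for 6 of 7 in AP and 5 of 7 in sham, fibroblast markers for 5 and 4 of 8, and macrophage markers for 3 and 4 of 6. The part of these shifts in the member results was not tested.

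Set side by side, the lung and colon tables held different leading members, though they were normalized separately and no test was made between them. In WT sham colon the order was Gsto1, Gstp1, Gstm1, Gstm2, Gsta4, Gstt1, Gstm3, Gsta1, Gsta3 and Gsta2. Ranges of neighbours overlapped between Gstp1 and Gstm1 and from Gsta4 down to Gsta3. Gsta1 averaged 14.2 ± 5.80 FPKM in WT sham colon and 0.463 ± 0.119 FPKM in WT sham lung, while Gsta3 averaged 12.1 ± 4.65 FPKM in WT sham colon and 194 ± 33.1 FPKM in WT sham lung. Gstm3 averaged 19.04 ± 2.39 FPKM in WT sham colon and 0.324 ± 0.0811 FPKM in WT sham lung. The 10 genes summed to 1207 ± 219 FPKM in KO AP colon and 700 ± 100.3 FPKM in WT AP colon, and to 1326 ± 345 FPKM in KO sham colon and 760 ± 107 FPKM in WT sham colon. In KO colon the pair most alike was Gsta1 and Gsta2 (n = 9, r = 0.908, permutation p = 0.00106, adjusted 0.0477; rho = 0.883, permutation p = 0.00308, adjusted 0.101; r = 0.800 without the 2 farthest). Over the 19 colon libraries the genes most like Gsta1 were Serpinb5 (r = 0.906), Aldh1a7 (r = 0.874), Abhd5 (r = 0.870), Idh1 (r = 0.864) and Dnaja2 (r = 0.859), given without a p.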

How the data were processed

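RNA of 39 libraries (20 lung, 19 colon) was sequenced. Per the labels, mRNA was enriched and fragmented and read on an Illumina platform. The authors deposited FPKM, in 1 table per tissue. Per the submitters' processing notes, the tools included HISAT2 2.1.0 and StringTie 1.3.3b, and the build was mm39. The strand setting and the annotation are not stated there, and counting could split reads between near-identical genes.

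Libraries were grouped by tissue, genotype and treatment from the labels. Genes that reached 1 FPKM in 4 or more libraries of a tissue were fitted per tissue as log2(FPKM + 1), with 1 mean for each of the 4 groups, by limma 3.58.1 in R 4.3.3 (eBayes with a trend), and p-values were Benjamini-Hochberg adjusted over all genes tested. An adjusted p under 0.05 was a call. The fit was tested on simulated data. Depth was recovered from single-transcript genes, of whose low values 98.5% or more per library fell within 0.02 of a whole read. Genes with several transcripts did not allow this, so no count test was run. Named genes were all members, the up to 5 genes of a list with the lowest p in KO against WT sham, 6 fixed genes of the NRF2 and glutathione pathways, the 5 genes most like Gsta1, and the member pairs with the highest and lowest r. The members, lists, rules and alternatives were chosen with earlier results of these data known. Alternatives were other pseudocounts, filters and scalings, a replicate block, library weights, fits on fewer groups and leaving out libraries. Other steps used Python 3.11.15.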

Additional observations from a re-analysis of the deposited data

Results flagged for a closer look

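In 80 sets of values, each 1 member in 1 group of 4 or 5 libraries, 6 held a library whose distance to its neighbour took up most of the group's range, where chance gives about 1 in 20. In lung, Gsta2 was at 147 FPKM in KO AP replicate 1, the same library that had the highest Gsta1. WT AP replicate 4 stood above its group for 3 genes, Gstm1 at 465 FPKM, Gstm2 at 158 FPKM and Gstp1 at 145 FPKM. FPKM over all genes also summed higher in that library, to 619215 against 494018 to 516357 in the other WT AP lungs. Its mitochondrial share was 11.4%, against 5.13 to 6.21% in those lungs. In colon, Gsta4 was at 18.0 FPKM in WT AP replicate 1, and Gstm1 at 410.0 FPKM in KO sham replicate 4.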

How the results depend on the processing

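The 6 member calls in KO sham lung and the calls in colon (3 in AP, 2 in sham) were kept in all alternatives run, 30 in lung and 28 in colon. Leaving out 1 library at a time gave 6 to 8 members called in KO against WT in sham lung (8 without KO sham replicate 4). In AP lung it gave 6 to 8 members without overlap. In colon it gave 3 to 5 called in AP (5 without KO AP replicate 4) and 2 to 4 in sham (4 without WT sham replicate 2). Other settings added members: in AP colon 5 with upper quartile scaling, and in sham colon 5 with library weights. In sham colon Gsta1 passed with a replicate block (adjusted p = 0.0223), weights (0.00767) and only the groups compared (0.0463), and without some single libraries. Gsto1 passed there with a block (0.0346) and weights (0.00993). In AP colon Gsta4 passed with upper quartile scaling (0.0468) and a block (0.0252). With weights Gsta3 also passed as lower in AP than sham in WT lung (-0.42, adjusted p = 0.0279), 1 call against 0. No member call reversed in any setting run. Gsta1 in KO sham lung ranged from 4.77 with a pseudocount of 5 to 7.77 without 3 libraries among the settings that change more than 1 library or the scale.

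Replicate numbers did not pair libraries: deviations of same-numbered libraries correlated from -0.320 to 0.386 in lung (6 of 30 pairs over 0.1) and from -0.524 to 0.465 in colon (7 of 27). With a replicate block, members called were 5 in AP colon and 4 in sham colon, and genes called between AP and sham were 1 in KO lung, 8 in WT lung and 0 in KO colon.

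Counts over all genes between AP and sham moved most. In KO lung the 2 genes became 5 with no filter, 10 with a pseudocount of 5, 15 with weights, 0 with only the groups compared, 31 without 3 libraries and 1 to 229 without 1. In WT lung the 13 became 1 or 3 on the rescaled totals (with and without mitochondrial genes), 1 with no filter, 21 with a pseudocount of 5, 1640 with weights, 110 with only the groups compared, 35 without 3 libraries and 0 to 20 without 1. In KO colon the 6 became 1 on both rescaled totals, 1026 with weights, 0 with only the groups compared and 0 to 1374 without 1. In WT colon the 0 became 4 with weights, 2 with no filter and 0 to 1 without 1. The difference of responses called 307 genes in lung with weights, 1 with a pseudocount of 0.1, 3 with 5, 1 without 3 libraries and 0 to 2 without 1, and in colon 1884 with weights, 2 with no filter and 0 to 1170 without 1. KO against WT called 8038 to 9513 genes in AP lung, 8596 to 9789 in sham lung, 1781 to 3291 in AP colon (4360 with weights) and 3473 to 5257 in sham colon without 1. The causes were not tested. Added after seeing the data, leaving out KO sham replicate 4 left 18 genes higher in sham lung in the list for glutathione synthesis, recycling and cystine import (18 with it). In the NRF2 list it left 18 higher (17 with it).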
